A study of Mus musculus with 38 samples.

Results

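Genes of cytotoxic lymphocytes, natural killer (NK) cells and type 1 helper T (Th1) cells were followed by bulk RNA sequencing, in omental tumors of mice and in the cell lines that form them. The 10 members were taken by symbol from the 55487 genes of the tables: Gzma, Gzmb, Gzmk, Prf1, Nkg7, Ifng, Tbx21, Eomes, Klrd1 and Ncr1. The tumors grew from 2 mouse lines of high-grade serous ovarian cancer (HGSOC), injected into the peritoneal cavity of female wild-type mice aged 8 to 9 weeks, 60577 into FVB and HGS2 into C57BL/6J. Mice received 3 weekly doses of carboplatin at 20 mg/kg with paclitaxel at 10 mg/kg (treated) or vehicle (control), and tumors were taken 1 day (TP1), 7 days (TP2) or 21 days (TP3) after the last dose. Treatment began 21 days after injection in 60577 and 49 days after injection in HGS2. Each tumor came from its own mouse. Of 60577 there were 3 controls at TP1 and 3 at TP2, and 3, 4 and 4 treated tumors at TP1, TP2 and TP3. Of HGS2 there were 3 controls at TP1 and 4 at TP2, and 3, 3 and 4 treated tumors. Neither model had TP3 controls, and each cell line had 2 monoculture libraries. Each model is a single cell line in a single strain, so that line, strain, time of growth and mapping of FVB reads to a C57BL/6J genome cannot be told apart between the models.

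Cytotoxic T cells and NK cells kill by releasing granules that hold perforin, which opens the membrane of the target, and granzymes, which cleave proteins inside it. Interferon gamma is the cytokine that defines Th1 cells, and T-bet (Tbx21) and Eomesodermin (Eomes) are the T-box transcription factors that direct this program in T cells and NK cells. In ovarian tumors these genes are read as markers of immune cells able to kill. In bulk RNA, more cells of a type and more RNA per cell cannot be told apart.

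RefSeq (GRCm38.p6) held a promoter for 9 of the 10 members, all but Klrd1. Short motifs of 4 factor families that act in these cells were searched on both strands of the 250 bases before each gene's start: GGTGTGA (T-box), TTCNNNGAA (STAT), TGTGGTT (RUNX) and TGANTCA (AP-1). The T-box letters were in 3.33% of 32851 promoters, the STAT letters in 7.02%, the RUNX letters in 4.4% and the AP-1 letters in 6.75%. Nkg7 and Gzmk had a T-box match, Nkg7 and Ifng a STAT match, Gzma, Gzmb and Ncr1 a RUNX match and Gzmb an AP-1 match. The promoters of Nkg7 (chr7:43436888-43437137, plus strand), Gzmk (chr13:113180966-113181215, minus strand) and Gzmb (chr14:56262335-56262584, minus strand) are shown because the first is the most abundant member per length, the second holds the other T-box match and was not counted in any untreated 60577 tumor, and the third passed its test at TP1 and not later. Each is written 5′ to 3′ along the gene, with matches in capitals.
Nkg7: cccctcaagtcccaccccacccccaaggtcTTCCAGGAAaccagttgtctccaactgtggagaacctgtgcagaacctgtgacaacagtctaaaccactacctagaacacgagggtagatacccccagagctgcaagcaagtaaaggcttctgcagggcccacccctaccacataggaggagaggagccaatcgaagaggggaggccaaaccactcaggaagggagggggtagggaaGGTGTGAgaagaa
Gzmk: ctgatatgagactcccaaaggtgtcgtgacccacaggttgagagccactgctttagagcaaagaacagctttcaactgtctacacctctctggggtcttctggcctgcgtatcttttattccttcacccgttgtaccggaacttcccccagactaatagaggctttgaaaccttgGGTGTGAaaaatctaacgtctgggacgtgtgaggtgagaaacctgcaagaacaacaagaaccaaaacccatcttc
Gzmb: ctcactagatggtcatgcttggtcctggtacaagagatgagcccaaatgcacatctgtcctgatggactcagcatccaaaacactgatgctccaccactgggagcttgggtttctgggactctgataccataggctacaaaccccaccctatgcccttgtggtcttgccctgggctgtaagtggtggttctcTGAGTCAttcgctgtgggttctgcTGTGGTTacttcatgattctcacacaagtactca
The capitals in Nkg7 are the STAT and then the T-box match, in Gzmk the T-box match and in Gzmb the AP-1 and then the RUNX match. A match describes the letters only, and binding was not measured.

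Tumor libraries held 17839635 to 49299442 counts, with a median of 27358649, and cell line libraries 31633121 to 42461995. Levels are given in CPM, counts relative to library size, scaled by TMM, a method that equalizes the bulk of genes between libraries. One count was worth 0.0229 to 0.0498 CPM, so the lowest levels here rest on single reads. A gene was tested where at least 9 of 33 tumors had at least 1 CPM, which kept 16241 genes and 5 of the 10 members: Prf1, Nkg7, Tbx21, Eomes and Klrd1. Gzma, Gzmb, Gzmk, Ifng and Ncr1 did not reach that level, and their tests come from a fit of all genes with a count. A gene passed the test at an adjusted p below 0.05 in edgeR's quasi-likelihood test with an absolute log2 fold change above 1. HGS2 TP3 treated replicate 1, absent from the study's own tables, stood apart with 16257 genes counted against 20038 to 23633 in the other tumors, and was left out of means and tests unless named. Acinar genes of the pancreas, the organ beside the omentum, took over 5% of the counts in 3 other HGS2 tumors, namely TP1 control 3 (7.4%), TP2 control 2 (14.03%) and TP3 treated 2 (7.39%). Genes of the tumor epithelium (Pax8, Wt1, Krt7, Krt8, Krt18, Krt19, Epcam and Muc16) were also summed. The sum was 44.1 CPM in HGS2 TP1 control 1, 116 CPM or more in every other tumor used and 1669 CPM or more in every cell line library. With no limit set for a tumor to fail, these sums describe the tumors and do not check the label.

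In the cell lines, which hold no host cells, the members were at or near 0. Gzma, Gzmk, Prf1, Nkg7, Ifng and Ncr1 had 0 counts in all 4 libraries, which allows a level of up to 0.0673 to 0.101 CPM by the limit of 3 counts. Klrd1 had 1 count in an HGS2 library, and Tbx21 had 2 counts in 60577 library 2. Eomes was the exception, with 35 and 31 counts in 60577 and 14 and 68 in HGS2, or 0.959 and 0.695 CPM and 0.471 and 1.83 CPM. The levels in the 60577 line lie above those of untreated 60577 tumors, 0.0621 to 0.556 CPM. In the HGS2 line 0.471 CPM lies below and 1.83 CPM within the range of untreated HGS2 tumors, 0.809 to 4.63 CPM. Tumors and cell lines were scaled separately. The part of tumor cells in the Eomes level of tumors was not tested. Gzmb had 10 counts in 60577 library 2 (0.224 CPM) and 0 in the other 3 libraries. The T cell receptor and lineage genes, used below for the tumors, summed to 31 and 57 counts in 60577 (0.849 and 1.28 CPM). In HGS2 they summed to 0 and 1 counts.

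In untreated 60577 tumors all 10 members were low. Gzmk, a granzyme typical of effector memory T cells, had 0 counts in all 6. Over these 6 tumors the lowest, median and highest levels were 0, 0.151 and 0.556 CPM for Prf1, 0.0311, 0.384 and 1.28 CPM for Nkg7 and 0.123, 0.331 and 1.21 CPM for Tbx21. TP2 control 1 was the highest of the 3 TP2 controls for 9 members, and it also had the highest sum of T cell receptor and lineage genes, 30.9 CPM against 6.24 and 14.7 CPM. No member passed the test between TP2 and TP1 controls of 60577, nor did any of the 16241 genes by edgeR (unadjusted p under 0.05 for 0 of 5 members, and 70 genes and 0 members called by the Wald test of DESeq2). Of the members below the filter, Gzmb was higher in TP2 than in TP1 controls by a log2 fold change of 1.76 ± 0.71 (SE, adjusted p = 0.672), with an unadjusted p of 0.0235, and the other 4 had an unadjusted p above 0.05.

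**Figure D1:**
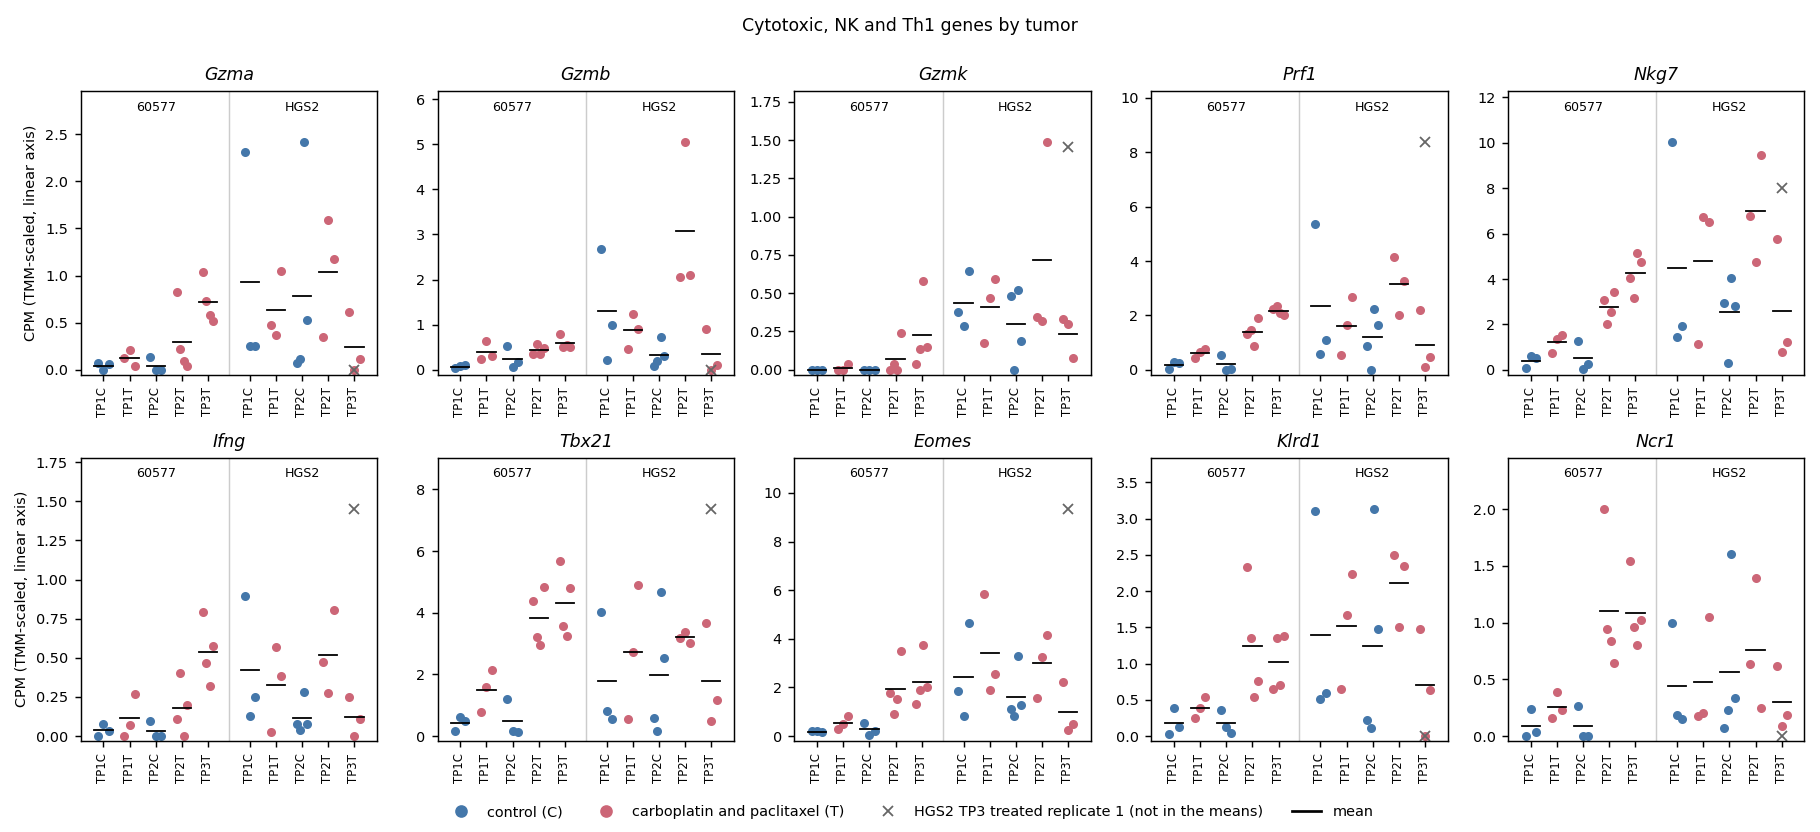
Level of each member in CPM on a linear axis, 1 point a tumor and a line at the mean, in control (C) and treated (T) groups of 60577 and HGS2 at TP1, TP2 and TP3, with crosses for HGS2 TP3 treated replicate 1. In treated 60577 tumors the means of most members are higher at TP2 and TP3 than at TP1, with Prf1 means of 0.199 CPM in TP2 controls and 2.18 CPM at TP3, whereas HGS2 points spread widely within groups.

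Of the granule effectors, Prf1 and Nkg7 passed the test in treated 60577 tumors 7 and 21 days after the last dose. Gzma and Gzmk passed it at 21 days and not at 7. With all 10 members tested, 0 passed between TP3 and TP2 treated tumors, so a difference in timing was not shown. Prf1, which encodes perforin, stood at 0.0346, 0.275 and 0.261 CPM in TP1 controls and 0.438, 0.672 and 0.775 CPM in TP1 treated tumors. At TP2 it was 0.556, 0 and 0.0411 CPM in controls and 1.32, 1.46, 0.883 and 1.92 CPM in treated tumors, and at TP3 2.23, 2.36, 2.1 and 2.02 CPM. Treated tumors did not overlap with their controls at any time point. Log2 fold changes were 1.71 ± 0.78 (SE, adjusted p = 0.106) at TP1, 2.75 ± 0.72 (SE, adjusted p = 0.00457) at TP2 and 3.40 ± 0.72 (SE, adjusted p = 0.00106) at TP3 against TP2 controls, so that Prf1 rose at TP2 and TP3. The TP3 tumors were compared with TP2 controls, where treatment and time cannot be told apart.

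Nkg7 encodes a protein of the granule membrane. It was 0.0693, 0.629 and 0.521 CPM in TP1 controls and 0.719, 1.38 and 1.55 CPM in TP1 treated tumors. Its TP2 levels were 1.28, 0.0311 and 0.247 CPM in controls and 3.08, 2.04, 2.55 and 3.44 CPM in treated tumors, and its TP3 levels 4.06, 3.18, 5.13 and 4.73 CPM. Again no treated tumor fell to the level of a control of its comparison. The log2 fold change did not pass at TP1, 1.58 ± 0.75 (SE, adjusted p = 0.121), and passed at TP2, 2.39 ± 0.70 (SE, adjusted p = 0.00883), and TP3, 3.03 ± 0.71 (SE, adjusted p = 0.00219).

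Of the 3 granzymes, Gzmb passed the test at TP1 and Gzma and Gzmk at TP3. Gzmb, the granzyme that triggers caspases, had 1, 2 and 3 counts in TP1 controls and 8, 18 and 8 in TP1 treated tumors (0.0346, 0.0787 and 0.0978 against 0.25, 0.636 and 0.31 CPM), a log2 fold change of 2.42 ± 0.69 (SE, adjusted p = 0.0205) that passed in the fit of all genes. At TP2 the treated tumors, at 0.358, 0.583, 0.343 and 0.481 CPM, overlapped with controls at 0.523, 0.0621 and 0.164 CPM, and at TP3 levels of 0.791, 0.498, 0.548 and 0.513 CPM also reached below the highest control. Neither later comparison passed, with 0.75 ± 0.56 (SE, adjusted p = 0.345) at TP2 and 1.21 ± 0.55 (SE, adjusted p = 0.111) at TP3. Gzmb was thus past the test 1 day after treatment and not later, against TP2 controls that had more Gzmb than TP1 controls by point estimate, and the difference between the time points was not past it either, with a log2 fold change of 0.09 ± 0.53 (SE, adjusted p = 1) between TP2 and TP1 treated tumors.

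Gzma, a granzyme that acts without caspases, had 4, 0 and 0 counts in TP2 controls, 23, 6, 2 and 1 in TP2 treated and 29, 22, 18 and 17 in TP3 treated tumors. Only the TP3 tumors were all above the controls, and Gzma rose at TP3, 3.85 ± 1.01 (SE, adjusted p = 0.00647), while TP2 gave 2.58 ± 1.05 (SE, adjusted p = 0.0688). Gzmk had 7 counts over the 4 TP2 treated tumors, 6 of them in replicate 4, and 1, 4, 18 and 5 counts at TP3, all above controls at 0. Against the limit of 3 counts over the controls, the observed Gzmk level was 2.02-fold higher at TP2 and 6.66-fold higher at TP3. These ratios leave out the counting error of the treated tumors, so they are not lower bounds. In the test, Gzmk passed at TP3 (adjusted p = 0.0259) and not at TP2 (adjusted p = 0.143).

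Ifng, which encodes interferon gamma, was counted sparsely before TP3. It had 0, 2 and 1 counts in TP1 controls and 0, 2 and 7 in TP1 treated tumors, 3, 0 and 0 in TP2 controls, 3, 11, 0 and 5 in TP2 treated and 22, 14, 10 and 19 in TP3 treated tumors. TP2 groups overlapped, and TP3 tumors all lay above the controls. From the summed counts, Ifng was 5.48-fold higher at TP2 (exact 95% interval 1.61 to 28.9) and 15.5-fold higher at TP3 (5.06 to 76.9), intervals that cover counting error only. The test across genes passed at TP3, 3.82 ± 1.11 (SE, adjusted p = 0.0134), and not at TP2, 2.22 ± 1.18 (SE, adjusted p = 0.173).

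Both T-box factors rose. Tbx21, the T-bet gene, was 0.173, 0.629 and 0.489 CPM in TP1 controls and 0.781, 1.59 and 2.13 CPM in TP1 treated tumors. It stood at 1.21, 0.155 and 0.123 CPM in TP2 controls, 4.37, 3.2, 2.94 and 4.85 CPM in TP2 treated and 5.68, 3.58, 3.26 and 4.79 CPM in TP3 treated tumors. Treated and control tumors did not overlap in any of the 3 comparisons. Tbx21 was the only 1 of the 5 kept members past the test at TP1, 1.80 ± 0.65 (SE, adjusted p = 0.0455), and it also rose at TP2, 2.91 ± 0.62 (SE, adjusted p = 0.00115), and TP3, 3.10 ± 0.62 (SE, adjusted p = 0.000724). The TP1 call did not hold under the replicate block (adjusted p = 0.0689), in limma-voom (0.0516), with both models in one fit (0.211), without the filter (0.0525), or without any 1 of the 3 controls or of treated tumors 2 and 3.

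Eomes, the T-box factor of NK cells and memory CD8 T cells, was 0.208, 0.197 and 0.163 CPM in TP1 controls and 0.313, 0.495 and 0.813 CPM in TP1 treated tumors. It was 0.556, 0.0621 and 0.206 CPM in TP2 controls, 1.79, 0.91, 1.52 and 3.48 CPM in TP2 treated and 1.33, 1.89, 3.74 and 2.02 CPM in TP3 treated tumors. The groups did not overlap, although the TP1 difference of 1.49 ± 0.70 (SE, adjusted p = 0.118) did not pass. Log2 fold changes were 2.78 ± 0.61 (SE, adjusted p = 0.00149) at TP2 and 3.02 ± 0.61 (SE, adjusted p = 0.000792) at TP3. Between TP1 and TP2 treated tumors Eomes was the 1 kept member past the test, 1.83 ± 0.57 (SE, adjusted p = 0.037), where 3.58% of all genes were called higher, and the call was lost under the replicate block (adjusted p = 0.0922), without the filter (0.0554) and without any 1 of 5 of the 7 tumors.

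The NK receptor genes rose at TP2 and TP3. Klrd1 encodes CD94, a lectin-like receptor of NK cells and some CD8 T cells, and was 0.0346, 0.393 and 0.13 CPM in TP1 controls against 0.25, 0.389 and 0.542 CPM in treated tumors. TP2 values were 0.36, 0.124 and 0.0411 CPM in controls and 2.33, 1.35, 0.54 and 0.761 CPM in treated tumors, and TP3 values 0.647, 1.36, 0.71 and 1.39 CPM. Klrd1 groups overlapped at TP1 and were apart at TP2 and TP3. It rose at TP2, 2.76 ± 0.71 (SE, adjusted p = 0.00399), and TP3, 2.49 ± 0.71 (SE, adjusted p = 0.00817), but not by the test at TP1, 1.10 ± 0.79 (SE, adjusted p = 0.309). Ncr1, the gene of NKp46 and among the most NK-specific markers, had 8, 0 and 0 counts in TP2 controls, 56, 26, 17 and 16 in TP2 treated and 43, 29, 25 and 34 in TP3 treated tumors, with no overlap. In the fit of all genes it rose at TP2, 3.51 ± 0.86 (SE, adjusted p = 0.00385), and TP3, 3.52 ± 0.86 (SE, adjusted p = 0.00374), and gave 1.56 ± 0.98 (SE, adjusted p = 0.351) at TP1.

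By count, 1 of 5 kept members was called higher at TP1, where 9.65% of all genes were, 5 of 5 at TP2 against 14.8%, and 5 of 5 at TP3 against 14.2%. None was called lower. The highest untreated 60577 levels of Prf1, Eomes and Klrd1 were 0.556, 0.556 and 0.393 CPM. These members were thus kept by the filter only through treated 60577 and HGS2 tumors. The members were also chosen with earlier results of these data known. Counts of members against the share of all genes, here and below, are therefore descriptions only. With no filter the counts were 1 of 10 at TP1 (Gzmb in place of Tbx21) against 5.7% of all genes, 6 of 10 at TP2 against 10.1% and 9 of 10 at TP3 against 10.1%. In terms of separation alone, every treated tumor lay above every control for 5 members at TP1 (Gzmb, Prf1, Nkg7, Tbx21 and Eomes), where 16.5% of genes did so, for 6 at TP2 against 17.1% and for 9 at TP3 against 18.8%. Between TP3 and TP2 treated tumors no member passed (0 at an unadjusted p under 0.05, 0 in DESeq2), while 3.47% of all genes were called higher. TP2 control 1 was the highest control for 9 members, and without it the TP2 log2 fold changes were 5.97 for Prf1, 4.38 for Nkg7, 4.72 for Tbx21, 3.87 for Eomes and 3.77 for Klrd1, and 5 of 5 were still called. The TP3 values, from the same controls, became 6.62 for Prf1, 5.02 for Nkg7 and 4.90 for Tbx21. Leaving out other single tumors lowered the TP2 values to as little as 2.14 for Prf1, 1.82 for Nkg7 and 2.47 for Tbx21. The lowest TP2 values were 2.29 for Eomes and 2.25 for Klrd1, and 5 of 5 were called each time. At TP3 the lowest were 2.79 for Prf1, 2.46 for Nkg7 and 2.65 for Tbx21.

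**Figure D2:**
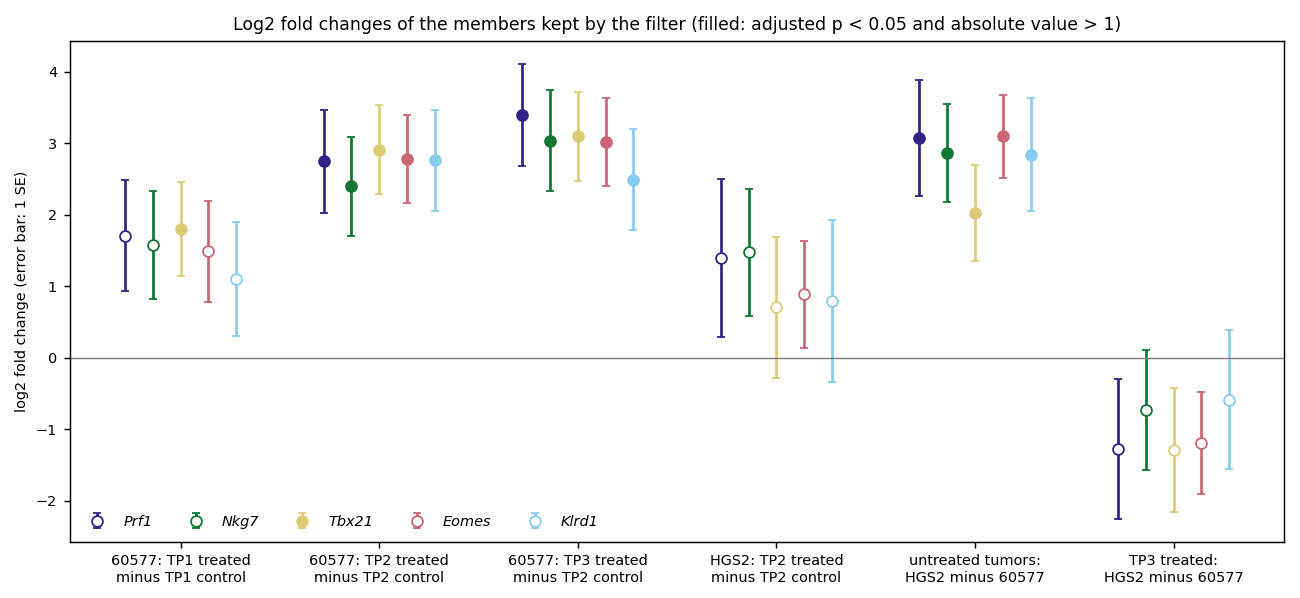
Log2 fold change with 1 SE for the 5 members kept by the filter in 6 comparisons, filled where the adjusted p was below 0.05 and the absolute value above 1. The filled points are Tbx21 at TP1, 5 of 5 at TP2 and TP3 of 60577 and 5 of 5 between untreated tumors of HGS2 and 60577, and the points of HGS2 treatment and of the TP3 comparison between models are open.

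T cell receptor genes rose as well. The 10 genes of the T cell receptor and lineage list summed to 6.24 to 30.9 CPM in TP2 controls, 112 to 199.7 CPM in TP2 treated and 162 to 189 CPM in TP3 treated 60577 tumors, and 10 of 10 were called higher at both time points. Cd3e, a chain of the T cell receptor complex, rose by a log2 fold change of 2.69 ± 0.42 (SE, adjusted p = 0.00011) at TP2, Cd4 of helper T cells by 2.77 ± 0.64 (SE, adjusted p = 0.00195) and Cd8a of cytotoxic T cells by 2.23 ± 0.80 (SE, adjusted p = 0.0271). To set the members against this, their log2 CPM was taken relative to the mean log2 CPM of Cd3d, Cd3e and Cd3g in each tumor. On that scale Prf1 in 60577 was -2.74 ± 0.41 (SD, n = 6) in controls and -3.000 ± 0.49 (SD, n = 11) in treated tumors, and Tbx21 was -1.66 ± 0.61 and -1.84 ± 0.45. Nkg7 went from -1.84 ± 0.34 to -2.07 ± 0.45, so that with time points pooled these 3 members differed between treated and control tumors by less than 1 SD of either group. Within time points the difference was larger than the SD of the 3 controls for Prf1 and Tbx21 at TP1 and for Nkg7 at TP2. With a prior count of 0.5 in place of 2 the Prf1 difference turned from -0.26 to 0.30. Klrd1 was lower relative to Cd3, at -2.63 ± 0.86 in controls and -3.68 ± 0.54 in treated tumors, and Eomes stood at -2.28 ± 0.72 and -2.96 ± 0.74. The Klrd1 difference shrank from -1.05 to -0.75 with a prior count of 0.5, and that of Eomes from -0.68 to -0.52. For members below the filter, treated minus control differences were -2.12 for Gzmk, -1.59 for Ifng, -1.58 for Gzmb, -1.32 for Gzma and -0.40 for Ncr1. With a prior count of 0.5 these were -1.36, -0.94, -1.30, -0.51 and 0.59. These ratios carry no test, and near 0 counts they depend on the prior count.

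**Figure D3:**
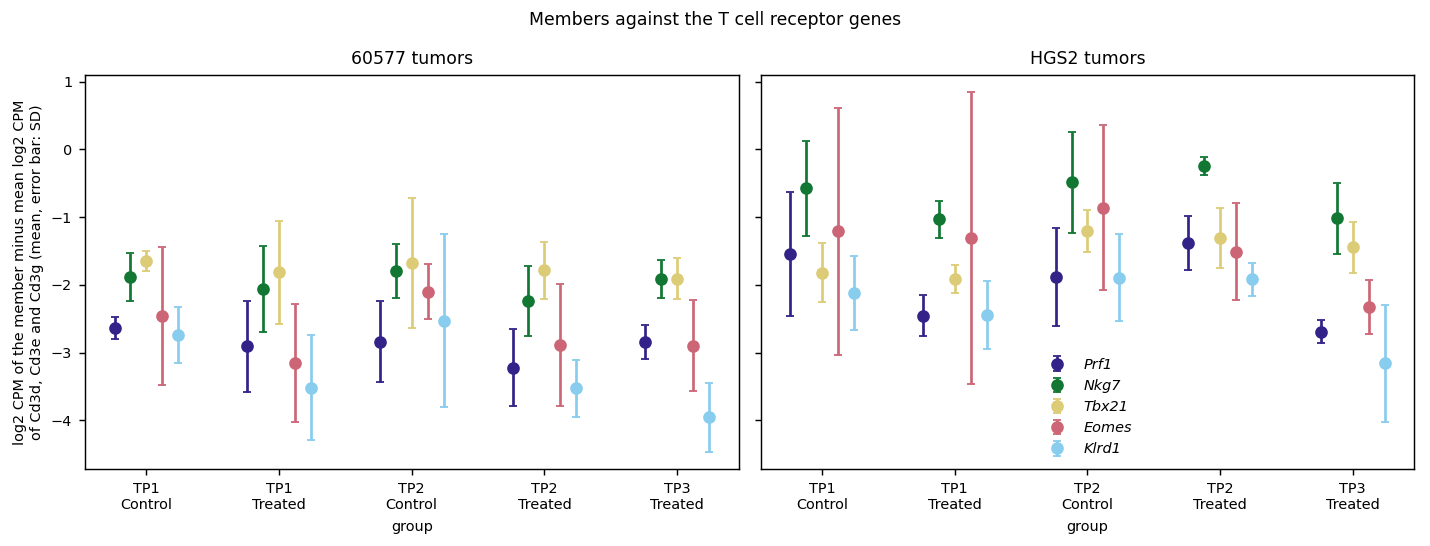
Log2 CPM of the 5 members kept by the filter minus the mean log2 CPM of Cd3d, Cd3e and Cd3g, as mean and SD over the tumors of each group. In 60577 the group means of Prf1, Nkg7 and Tbx21 are between -3.22 and -1.64, and in HGS2 the SD of Eomes is the widest of the 5 at TP1.

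Other genes of these pathways were read from lists. Of 15 Th1 differentiation genes tested (16 listed), 8 rose at TP1, 11 at TP2 and 10 at TP3, and none fell, with a median log2 fold change of 1.95 at TP2 against 0.03 over all genes. Among them Stat4, which carries the interleukin 12 signal, rose by 2.98 ± 0.46 (SE, adjusted p = 0.000103) at TP2, Cxcr3, a homing receptor of Th1 and CD8 cells, by 3.28 ± 0.70 (SE, adjusted p = 0.00118) and Il12rb2, a chain of the interleukin 12 receptor, by 1.95 ± 0.60 (SE, adjusted p = 0.0116). Of 4 Th1-inducing cytokine genes tested (6 listed), 2 rose and 1 fell at TP1, 3 rose at TP2 and 3 rose at TP3. Il12b, a subunit of interleukin 12, passed at TP1 already, with a log2 fold change of 3.50 ± 0.73 (SE, adjusted p = 0.00223) at TP1 and 4.25 ± 0.65 (SE, adjusted p = 9.43e-05) at TP2. Il27 did not reach the level for testing, at 0 to 0.425 CPM in TP2 controls and 0.143 to 0.546 CPM in TP2 treated tumors.

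Of 9 NK and killer lectin receptor genes tested (19 listed), 3 rose and 1 fell at TP1, and 6 rose at both TP2 and TP3. Klrk1, the gene of the activating receptor NKG2D, rose by 2.89 ± 0.65 (SE, adjusted p = 0.00173) at TP2, and Klrb1c, the NK1.1 gene, by 1.79 ± 0.54 (SE, adjusted p = 0.0107). Klre1 stayed below the testing level, at 0.0311 to 0.0981 CPM in TP2 controls and 0.147 to 0.441 CPM in TP2 treated tumors. The 11 other granule and death ligand genes tested (18 listed) were more mixed, with 1 called higher at TP1, 4 higher and 1 lower at TP2 and 4 higher at TP3, and a median of 0.05 at TP2. Fasl, the ligand of the death receptor Fas, rose by 3.14 ± 0.46 (SE, adjusted p = 7.16e-05) at TP2, and Ctsw, a cathepsin of cytotoxic lymphocytes, by 2.49 ± 0.47 (SE, adjusted p = 0.000449). Gzmc was not tested, with 0.0311 to 0.458 CPM in TP2 controls and 0 to 0.107 CPM in TP2 treated tumors.

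Targets of interferon gamma passed in part. Of 20 receptor and response genes tested (22 listed), 2 rose at TP1, 9 rose and 1 fell at TP2, and 10 rose and 2 fell at TP3, with a median of 1.12 at TP2. Ciita, the regulator of MHC class II, rose at TP2, 1.53 ± 0.42 (SE, adjusted p = 0.0063), and gave 0.85 ± 0.41 (SE, adjusted p = 0.0947) at TP3. Cxcl9, a chemokine for CXCR3, was 2.20 ± 0.95 (SE, adjusted p = 0.0584) at TP2 and rose at TP3, 2.60 ± 0.96 (SE, adjusted p = 0.034). Irf1 and Gbp2 did not pass at TP2, with log2 fold changes of 0.73 ± 0.26 (SE, adjusted p = 0.0235) and 0.36 ± 0.36 (SE, adjusted p = 0.409). Of the 3 Th2 and Th17 genes tested (8 listed), 1 fell at TP1 and 2 rose at TP2 and at TP3. Gata3, a Th2 factor that innate and epithelial cells also use, rose by 1.45 ± 0.18 (SE, adjusted p = 1.94e-05) at TP2.

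**Figure D4:**
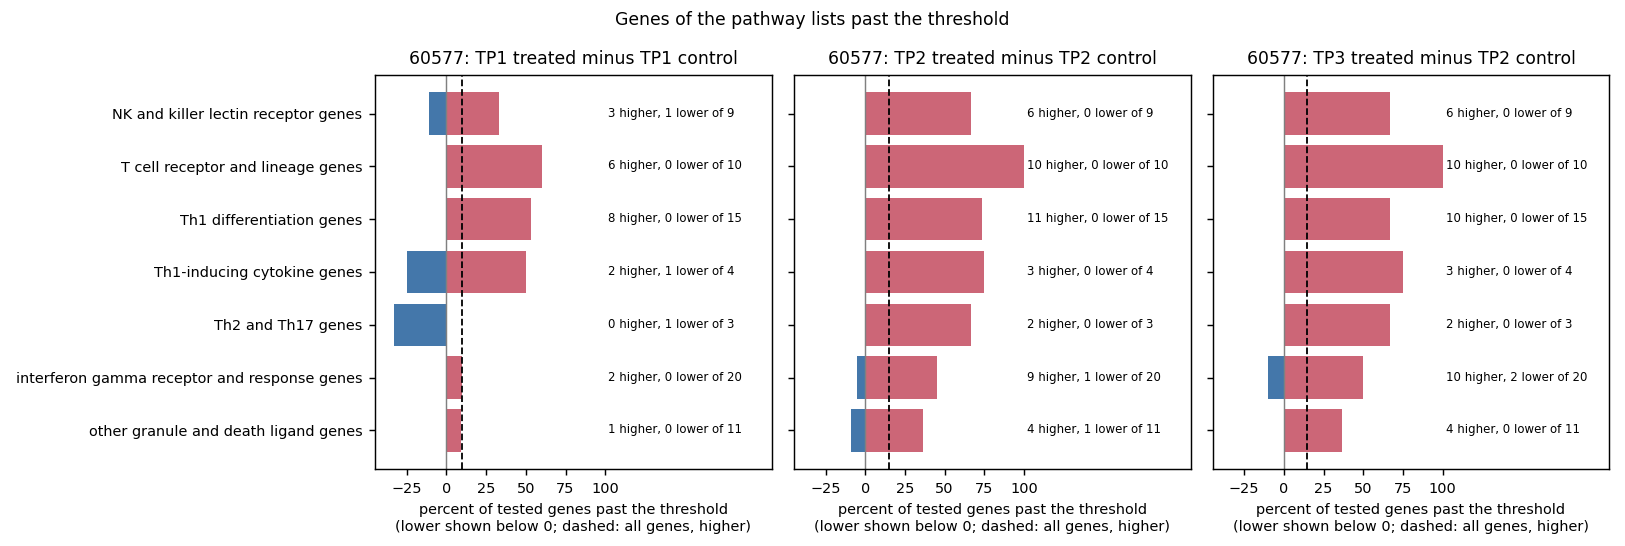
Percent of tested genes of each pathway list called higher (right of 0) or lower (left of 0) in 60577 at TP1, TP2 and TP3, with the percent of all genes called higher as a dashed line (9.65, 14.8 and 14.2). The T cell receptor and lineage list reaches 10 of 10 at TP2 and TP3, and the interferon gamma response list 9 and 10 of 20.

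Markers of other cell types moved at the same time in 60577. Of all genes, 9.65%, 14.8% and 14.2% were called higher at TP1, TP2 and TP3. In either direction, 2535, 3969 and 3966 of 16241 genes were called. Tumor epithelial genes summed to 2428 to 3422 CPM in TP2 controls, 680.0 to 1157 CPM in TP2 treated and 494 to 663 CPM in TP3 treated tumors, with 5 of 7 tested genes lower at TP2 and 7 of 7 at TP3. B cell genes went from 3.2 to 20.8 CPM to 79.2 to 228 CPM at TP2 and 289.7 to 382 CPM at TP3, with 6 of 6 higher at both. Adipocyte genes rose from 46.5 to 54.1 CPM to 127 to 716 CPM and 1365 to 1964 CPM, with 5 of 6 and 6 of 6 higher, and 2 of 2 tested genes of type 2 innate lymphoid cells were higher at both. Of macrophage genes, 1 of 6 was higher at TP2 and at TP3, near the share of all genes. Neutrophil genes were higher for 4 of 4 at TP1 and lower for 3 of 4 at TP2 and TP3, mesothelial genes lower for 4 of 4 at TP1, 1 of 4 at TP2 and 3 of 4 at TP3. Mast cell genes were higher for 2, 3 and 4 of 5 and lower for 0, 1 and 0 at the 3 time points, plasmacytoid dendritic cell genes higher for 1, 3 and 3 of 4, and plasma cell genes higher for 0, 0 and 2 and lower for 0, 1 and 1 of 4. Acinar genes were lower for 9 of 9 at TP2, with 10.5 to 1569.5 CPM in controls and 7.26 to 30.0 CPM in treated tumors, and for 0 of 9 at TP1 and TP3. The part of a smaller tumor cell share, or of any of these cell types, in the members' rise was not tested.

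In HGS2 no treatment comparison passed for any member, and levels varied widely within groups. At TP1 Prf1 was 5.37, 0.571 and 1.1 CPM in controls and 0.53, 1.64 and 2.69 CPM in treated tumors. At TP2 it was 0.892, 0, 2.25 and 1.66 CPM in controls, 4.14, 2.02 and 3.28 CPM in treated tumors and at TP3 2.18, 0.0918 and 0.482 CPM. Ranges overlapped in each comparison. TP1 control 1 was the highest of its group for 8 members and TP2 control 3 for 10, and these tumors also had the highest T cell sums of their groups, 103.6 and 93.3 CPM. TP1 control 1 had the lowest tumor epithelial sum of the tumors used, 44.1 CPM. The part of these cell types in the spread was not tested. TP2 control 2, the tumor richest in acinar genes, was the lowest of its group for 7 members and had a T cell sum of 7.21 CPM.

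At TP2 each of the 5 kept members of HGS2 was higher in treated tumors on average, without passing. Log2 fold changes were 1.40 ± 1.11 (SE, adjusted p = 0.752) for Prf1, 1.48 ± 0.89 (SE, adjusted p = 0.684) for Nkg7, 0.70 ± 0.99 (SE, adjusted p = 0.862) for Tbx21, 0.89 ± 0.75 (SE, adjusted p = 0.765) for Eomes and 0.79 ± 1.13 (SE, adjusted p = 0.863) for Klrd1. Across all 16241 genes edgeR called 0 in the 6 HGS2 comparisons of treatment or time when HGS2 was fitted alone, and 0 of 5 members had an unadjusted p under 0.05. With both models in one fit it called 3 genes between TP3 treated tumors and TP2 controls and 1 between TP3 and TP2 treated tumors, and 0 members. DESeq2 called 1 to 105 genes in these comparisons and 0 members. Separation was complete for 2 members at TP2, where 4.45% of genes were separated, for 0 at TP1 (2.67% of genes) and for 0 at TP3 against TP2 controls (0.984%).

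The 2 were Gzmb and Nkg7. Gzmb was 0.0743, 0.193, 0.724 and 0.303 CPM in TP2 controls and 2.05, 5.04 and 2.1 CPM in TP2 treated tumors, a log2 fold change of 3.23 ± 1.07 (SE, adjusted p = 0.818). Its level had been 2.69, 0.222 and 0.997 CPM in TP1 controls and 0.472, 1.24 and 0.908 CPM in TP1 treated tumors, and was 0.906, 0 and 0.111 CPM at TP3. Nkg7 was 2.94, 0.308, 4.06 and 2.8 CPM in TP2 controls and 6.79, 4.76 and 9.46 CPM in TP2 treated tumors. At TP1 the Nkg7 groups overlapped, with 10.02, 1.43 and 1.94 CPM and 1.15, 6.73 and 6.53 CPM. For the other members below the filter the TP2 log2 fold changes were 2.12 ± 1.06 (SE, adjusted p = 0.818) for Ifng, 1.25 ± 0.90 (SE, adjusted p = 0.818) for Gzmk, 0.41 ± 1.20 (SE, adjusted p = 1) for Gzma and 0.42 ± 1.01 (SE, adjusted p = 1) for Ncr1.

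At TP3 the HGS2 means of the 5 kept members were below those of TP2 treated tumors, without passing. Tbx21 was 0.595, 0.154, 4.67 and 2.53 CPM in TP2 controls, 3.19, 3.37 and 3.03 CPM in TP2 treated tumors and 3.67, 0.505 and 1.19 CPM at TP3, and Eomes was 1.12, 0.809, 3.3 and 1.29 CPM, 1.55, 3.25 and 4.18 CPM and 2.22, 0.252 and 0.519 CPM. Klrd1 was 0.223, 0.116, 3.14 and 1.48 CPM, 2.49, 1.51 and 2.35 CPM and 1.48, 0 and 0.63 CPM in the same order. TP3 treated 2 was the highest of the 3 for 10 of 10 members, and TP3 treated 3 the lowest for 9. From TP2 to TP3 treated tumors the log2 fold changes were -1.80 ± 1.23 (SE, adjusted p = 0.632) for Prf1, -1.61 ± 1.26 (SE, adjusted p = 0.674) for Klrd1, -1.60 ± 0.83 (SE, adjusted p = 0.521) for Eomes, -1.44 ± 0.97 (SE, adjusted p = 0.626) for Nkg7 and -0.85 ± 1.07 (SE, adjusted p = 0.811) for Tbx21, none past the test. With replicate 1 of TP3 included the values for Prf1, Eomes and Tbx21 were -0.17, 0.05 and 0.00, and that of Klrd1 was -1.997. That library had 8.37 CPM of Prf1, 9.35 CPM of Eomes and 7.38 CPM of Tbx21. Without TP3 treated 2 the values were -3.48 for Prf1, -2.95 for Eomes, -2.80 for Klrd1, -2.77 for Nkg7 and -1.91 for Tbx21, still with 0 past the test.

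Untreated tumors of the models differed in the members. Untreated HGS2 tumors had lowest, median and highest levels of 0, 1.1 and 5.37 CPM for Prf1, 0.308, 2.8 and 10.02 CPM for Nkg7, 0.154, 0.824 and 4.67 CPM for Tbx21, 0.809, 1.29 and 4.63 CPM for Eomes and 0.116, 0.598 and 3.14 CPM for Klrd1 over 7 tumors. In 60577 the corresponding levels of Eomes were 0.0621, 0.201 and 0.556 CPM and of Klrd1 0.0346, 0.127 and 0.393 CPM over 6 tumors. Eomes was the only member with every HGS2 control above every 60577 control, as were 5.95% of all genes. Eomes was also counted in both cell lines, at 0.959 and 0.695 CPM in 60577 and 0.471 and 1.83 CPM in HGS2. The part of tumor cells in this difference was not tested. The lowest HGS2 value of each of the other 9 members lay within the 60577 range or below it.

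Between untreated tumors 5 of 5 kept members were higher in HGS2, where 13.2% of all genes were, with log2 fold changes of 3.10 ± 0.58 (SE, adjusted p = 9.05e-05) for Eomes, 3.07 ± 0.81 (SE, adjusted p = 0.00259) for Prf1, 2.86 ± 0.68 (SE, adjusted p = 0.00111) for Nkg7, 2.84 ± 0.80 (SE, adjusted p = 0.00436) for Klrd1 and 2.02 ± 0.68 (SE, adjusted p = 0.0147) for Tbx21. Without the filter 10 of 10 were, against 9.56% of all genes. Gzmk was 0, 0.379 and 0.648 CPM in HGS2 (lowest, median and highest) against 0 counts in 60577, and Gzma and Gzmb gave log2 fold changes of 4.09 ± 0.999 (SE, adjusted p = 0.00224) and 2.23 ± 0.69 (SE, adjusted p = 0.0153). Without 60577 TP2 control 1 the Prf1 value was 4.68. Without HGS2 TP1 control 1 the values were 2.32 for Prf1, 2.16 for Nkg7, 2.17 for Klrd1 and 3.18 for Eomes, with these 4 still called. Tbx21 no longer passed without HGS2 TP1 control 1, at 1.33 (adjusted p = 0.104), or in limma-voom (adjusted p = 0.0977). Without the 3 tumors rich in acinar genes 5 of 5 were still called, with 2.74 for Eomes and 3.40 for Prf1. Of the T cell receptor and lineage genes, 7 of 10 were higher in untreated HGS2, with Cd8a at 3.44 ± 0.86 (SE, adjusted p = 0.00173) and Cd4 at 1.16 ± 0.52 (SE, adjusted p = 0.0627), and tumor epithelial genes were lower for 6 of 7, macrophage genes higher for 6 of 6 and acinar genes higher for 9 of 9. Their part in the difference was not tested.

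The difference in response between the models was itself tested, and no member passed. At TP2 the log2 response of HGS2 was lower than that of 60577 by point estimate for 5 of 5, with -2.24 ± 1.25 (SE, adjusted p = 0.233) for Tbx21, -1.997 ± 1.42 (SE, adjusted p = 0.351) for Klrd1, -1.91 ± 1.02 (SE, adjusted p = 0.213) for Eomes, -1.37 ± 1.42 (SE, adjusted p = 0.536) for Prf1 and -0.93 ± 1.20 (SE, adjusted p = 0.629) for Nkg7, while 6.9% of all genes were called in either direction. These sizes moved with single controls. Without 60577 TP2 control 1 they were -4.58 for Prf1, -4.04 for Tbx21, -3.01 for Klrd1, -2.98 for Eomes and -2.90 for Nkg7, with 0 past the test. Without HGS2 TP2 control 3 they shrank to -1.38 for Tbx21 and -0.97 for Klrd1, and without 60577 TP2 control 2 to -0.78 for Prf1 and -0.37 for Nkg7. At TP1 also 0 of 5 passed, with 1.45% of all genes called. Both comparisons had 0 members at an unadjusted p under 0.05 and 0 in DESeq2. A rise in 60577 and none past the test in HGS2 therefore does not show that the models responded differently in these genes.

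At TP3 no kept member passed between treated tumors of the models. HGS2 minus 60577 gave -1.29 ± 0.87 (SE, adjusted p = 0.272) for Tbx21, -1.27 ± 0.98 (SE, adjusted p = 0.341) for Prf1, -1.19 ± 0.71 (SE, adjusted p = 0.208) for Eomes, -0.73 ± 0.84 (SE, adjusted p = 0.536) for Nkg7 and -0.59 ± 0.97 (SE, adjusted p = 0.677) for Klrd1, 0 of 5 past the test against 16% of all genes in either direction. This rested on few HGS2 libraries. Without TP3 treated 2, the pancreas-rich tumor, Eomes passed at -2.57 (adjusted p = 0.0168). When the other 2 such tumors were also left out, Tbx21 (-2.36), Eomes (-2.55) and Prf1 (-2.98) were lower in HGS2 past the test, whereas with TP3 replicate 1 added Eomes and Prf1 turned to 0.44 and 0.33.

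Per length of exon, as CPM divided by exon length in kilobases (RPKM), Nkg7 led in each of the 10 groups. Its mean level was 4.68 RPKM in TP3 treated 60577 tumors, followed by Tbx21 at 1.74, Prf1 at 0.842, Klrd1 at 0.801, Gzma at 0.712 and Ncr1 at 0.704 RPKM. Eomes at 0.54, Ifng at 0.415, Gzmb at 0.409 and Gzmk at 0.162 RPKM ended that order. In TP2 treated HGS2 tumors Nkg7 at 7.67 RPKM was followed by Gzmb at 2.13, Klrd1 at 1.65, Tbx21 at 1.29 and Prf1 at 1.22 RPKM. Gzmb thus stood next to last in the first order and next to Nkg7 in the second. Among neighbors in the order of TP3 treated 60577 tumors, the values by tumor of Nkg7 and Tbx21 and Tbx21 and Prf1 did not overlap, and those of the other pairs did. Among neighbors in the order of TP2 treated HGS2 tumors, the values by tumor of Nkg7 and Gzmb did not overlap, and those of the other pairs did.

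Genes whose log2 CPM ran most like the mean of the 5 kept members were named separately for each model. Over the 17 tumors of 60577 these were Itgal (r = 0.983), the alpha chain of the integrin LFA-1, Gimap7 (0.981), Csk (0.980), Irf8 (0.980) and Ltb (0.979). Over the 16 tumors of HGS2 they were Il2rb (0.984), the interleukin 2 receptor chain of NK and CD8 cells, Sh2d2a (0.970), Irf8 (0.961), Ciita (0.954) and Klrk1 (0.951). Irf8 stood in both lists. The tumors share treatment groups within each model, so these Pearson coefficients are descriptions.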

How the data were processed

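Bulk RNA of 34 tumors and 4 cell line libraries was sequenced strand-specifically after removal of ribosomal RNA. The authors deposited expected counts per gene from RSEM, made after trimming with Trim Galore 0.6.5 and alignment with STAR 2.7.0f to GRCm38 (mm10), with tumors and cell lines in separate tables. Symbols came from GENCODE. Expected counts were rounded, and CPM was scaled by TMM, with a prior count of 2 on the log2 scale. A gene was kept where 9 or more tumors reached 1 CPM (16241 genes, 13926 of them protein coding). Each model was fitted separately with 1 term per group, and both together for comparisons between models, by edgeR's quasi-likelihood test (edgeR 4.0.16, R 4.3.3) with Benjamini-Hochberg adjustment over all genes, with calls at an adjusted p under 0.05 and a log2 fold change beyond 1 in size. Each SE of a log2 fold change was back-calculated from that test, as the absolute log2 fold change over the square root of the F statistic. Alternatives used limma 3.58.1 and DESeq2 1.42.0, other filters, the replicate number as a block and tumors left out singly. The members and gene lists were chosen with earlier results of these data known. Replicates were tumors of individual mice, and the lowest chi-square per degree of freedom among 42 replicate pairs was 10.4, so that each pair differed by more than sampling noise. Named genes outside the members were 19 genes fixed from the pathway lists and, in each model, the 5 kept genes with the highest Pearson correlation to the mean log2 CPM of the kept members. Intervals and count limits cover counting error only.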

Additional observations from a re-analysis of the deposited data

Results flagged for a closer look

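In 2 cases a tumor stood far from the others of its group, of 30 pairs of member and group looked at, where chance gives about 1 in 20. Gzmk in 60577 TP2 treated replicate 4 was 0.24 CPM, and Ifng in HGS2 TP2 control replicate 3 was 0.282 CPM.

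The cell lines, used only as a host-free reference, held reads of 2 members above the limit of 3 counts. Eomes had 35 and 31 counts in the 60577 libraries and 14 and 68 in the HGS2 libraries. Gzmb had 10 counts in 60577 library 2.

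HGS2 TP3 treated replicate 1 entered no mean or test above except where its inclusion is named. It had 1.45 CPM of Gzmk, 8.37 of Prf1, 8.02 of Nkg7, 1.45 of Ifng, 7.38 of Tbx21 and 9.35 of Eomes, each above every HGS2 TP2 control. How many of all genes lay above those controls is not given, so these values are a description only. This library had 0 counts of Gzma, Gzmb, Klrd1 and Ncr1. Its T cell receptor and lineage genes summed to 304.9 CPM.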

How the results depend on the processing

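Limits: groups held 3 or 4 tumors, 5 of 10 members lay near the level of single reads, and TP3 had no controls. Replicate numbers did not pair tumors: over 31 pairs of 60577 the correlation of deviations ran from -0.418 to 0.318 (3 of 17 tumors closest to their own number), and over 27 pairs of HGS2 from -0.488 to 0.367 (2 of 16). Runs without the filter and under filterByExpr also tested members below the main filter, so their counts are over a larger set. At TP1 of 60577 the members called went from 1 to 0 under the replicate block, alone and with the length and GC offset. They also went to 0 in limma-voom and with both models in one fit. They went to 2 under filterByExpr and the DESeq2 Wald test, and ran from 0 to 1 leaving out single tumors. At TP3 of 60577 they went from 5 to 9 without the filter and 8 under filterByExpr, and Klrd1 did not pass with both models in one fit (adjusted p = 0.0727). Between TP2 and TP1 treated 60577 tumors they went from 1 to 0 under the replicate block, with the offset and replicate block, without the filter and with both models in one fit, to 2 in limma-voom, and from 0 to 1 leaving out single tumors. Between untreated tumors they went from 5 to 10 without the filter and 10 under filterByExpr, where 10 members were tested, and from 4 to 5 leaving out single tumors. Between TP3 treated tumors they went from 0 to 1 in limma-voom, from 0 to 1 leaving out single tumors, and to 3 without the pancreas-rich tumors, a choice made after seeing the data. With all 17 HGS2 tumors the change from TP2 to TP3 treated tumors turned to 0.00079 for Tbx21 and 0.051 for Eomes, and the TP3 difference between models to 0.44 for Eomes and 0.33 for Prf1. That difference for Klrd1 ran from -1.82 to 0.037 leaving out single tumors, the last without HGS2 TP3 treated replicate 3. Relative to Cd3, a prior count of 0.5 in place of 2 moved Prf1 in 60577 from -0.26 to 0.30 and Ncr1 from -0.40 to 0.59. The cause was not tested. At TP2 of 60577 the count was 5 in each alternative run, other than 6 without the filter and 6 under filterByExpr, and it was 4 at TP3 with both models in one fit and 4 between untreated tumors in limma-voom. In the comparisons not named here 0 members were called under each alternative run.

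Over all genes, counts moved by over 1.5 times as follows. With both models in one fit 1605 genes were called at TP1 of 60577, 271 between TP2 and TP1 treated tumors (570 under the replicate block, 608 with the offset as well, 254 to 1369 leaving out single tumors) and 803 between TP3 and TP2 treated tumors (732 to 2127), and in HGS2 3 between TP3 treated tumors and TP2 controls and 1 between TP3 and TP2 treated tumors. Untreated tumors of the models gave 5377 without the filter. The TP1 response between models gave 111 without the filter, 721 in DESeq2, 156 with the offset and block and 154 with all 17 HGS2 tumors, and the TP2 response 679 under the replicate block, with 62 to 647 and 365 to 1474 leaving out single tumors. DESeq2 called 70 genes between 60577 controls (0 to 36 leaving out single tumors) and 1, 8, 5, 1, 105 and 7 in the HGS2 comparisons, where controls gave 0 to 49 leaving out single tumors.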
